A study of Mus musculus with 11 samples.

Results

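DNA replication and G1-S genes were followed in endothelial cells sorted from mouse retinas in the oxygen-induced retinopathy (OIR) model. In it, pups are kept in high oxygen and returned to room air, and the oxygen-starved retina then regains vessels and forms pathological new ones. The 51 genes were a list, matched by symbol to 51 of the 55359 genes in the count files. The rule for membership used no measured value, but the list was drawn up with earlier results of these data known. The study compared oncostatin M (OSM), a cytokine of the interleukin-6 family, with phosphate-buffered saline (PBS). All mice were C57BL/6 and received 0.5 µL into the vitreous at postnatal day 12 (P12), OSM at 100 ng/µL in 5 mice and PBS in 6 mice. Cells positive for the endothelial protein CD31 and negative for the leukocyte protein CD45 were sorted at P17, and both retinas of 1 mouse made 1 sample. The methods describe PBS injection of contralateral eyes but do not say how this relates to the pooled retinas, so whether both eyes of a mouse received the same injection is not known here. The mice came from 3 litters, each its own OIR run. Litter 1 held OSM mice 1 and 2 and PBS mice 3 and 4, litter 2 held OSM mice 5 and 6 and PBS mice 7 and 8, and litter 3 held OSM mouse 9 and PBS mice 10 and 11. Column headings inside the files of PBS mice 10 and 11 read 11 and 12, and the mice are named here by their labels.

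Before a cell copies its DNA, the origin recognition complex (ORC), Cdc6 and Cdt1 load the MCM2-7 helicase on origins, which is called licensing. D-type cyclins with Cdk4 or Cdk6, and E-type cyclins with Cdk2, then release E2F transcription factors from the retinoblastoma protein, and E2F factors drive many of the replication genes in late G1 and S phase. The helicase is completed by Cdc45 and the GINS complex, the polymerases copy the strands with the Pcna clamp, and ribonucleotide reductase and thymidylate synthase supply the building blocks. Quiescent vessels contain few cells in S phase, whereas sprouting and pathological vessels contain more.

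The libraries held 26697990 to 56033479 counted reads, of which 62109 to 159725 fell on the 51 genes. PBS mouse 3 stood apart in breadth, with reads on 20898 genes against 16635 to 17697 in the other libraries. Endothelial markers summed to 12290 to 17913 CPM (counts scaled to the library size after TMM normalisation) in the 11 mice, and Ptprc, which encodes CD45, was at most 0.835 CPM. Rod markers ranged from 192 to 5458 CPM and were highest in OSM mouse 5. In bulk samples, fewer cells of a type and less RNA per cell cannot be told apart.

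E2F-binding letters were looked for in the promoters, because E2F factors are the textbook regulators of these genes. RefSeq promoter sequences on GRCm38.p6, from 250 bases before to 50 bases after the start of the gene, were at hand for 41 of the 51 genes. The 4 motifs searched on both strands were TTTCCCGC, TTTGGCGC, TTTCGCGC and TTTGCCGC. At least 1 of them was present in 16 of the 41 promoters (39.0%), in 516 of 11262 promoters of all tested genes (4.58%) and in 704 of 27025 promoters of the whole table (2.60%). Stretches of 60 bases around a match that lay before the gene start are given here for 8 genes from several steps of replication, 5′ to 3′ on the strand of the gene, with the match in capitals. In Mcm5, 2 matches overlap.
Mcm5 (helicase subunit), chr8:75109334-75109393, plus strand: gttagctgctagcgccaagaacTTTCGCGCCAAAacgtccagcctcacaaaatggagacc
Mcm6 (helicase subunit), chr1:128359719-128359778, minus strand: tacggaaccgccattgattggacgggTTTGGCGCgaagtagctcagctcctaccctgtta
Mcm7 (helicase subunit), chr5:138172015-138172074, minus strand: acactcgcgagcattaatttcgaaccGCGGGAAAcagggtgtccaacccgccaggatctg
Orc3 (origin recognition), chr4:34614950-34615009, minus strand: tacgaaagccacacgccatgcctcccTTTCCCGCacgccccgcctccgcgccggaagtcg
Cdc6 (helicase loading), chr11:98907987-98908046, plus strand: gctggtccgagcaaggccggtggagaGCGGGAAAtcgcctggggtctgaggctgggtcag
Gins3 (helicase activation), chr8:95633492-95633551, plus strand: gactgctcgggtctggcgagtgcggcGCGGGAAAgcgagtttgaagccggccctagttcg
Pola1 (polymerase alpha), chrX:93632260-93632319, minus strand: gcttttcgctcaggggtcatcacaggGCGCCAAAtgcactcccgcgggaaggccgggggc
Cdk2 (kinase of cyclin E), chr10:128705158-128705217, minus strand: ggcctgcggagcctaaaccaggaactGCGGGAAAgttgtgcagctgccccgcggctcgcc

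Of other lists, the motifs were found in 9 of 31 promoters of further replication genes (29.0%), in 7 of 23 of G1-S regulators (30.4%), in 1 of 21 of mitotic markers (4.76%) and in 0 of 18 of nucleotide supply genes. A match describes the letters in this window only.

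All 51 genes passed the filter on low counts, and 48 had reads in all 11 mice. The exceptions were Orc1 with 0 reads in OSM mouse 6, Cdk6 with 0 in OSM mouse 9 and Mcm10 with 0 in PBS mouse 11. Levels between genes were compared as TPM, in which reads are divided by the length of all annotated exons of a gene and scaled to a constant sum per mouse. The median of the 51 genes was 25.6 TPM, against 8.72 TPM over the 17050 genes tested.

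Cdk4, the kinase partner of D-type cyclins, had the highest level at 438 ± 50.4 TPM (SD, n = 11). Its range of 340 to 520 TPM lay above that of every other gene of the list. Mcm6 followed at 183 ± 33.5 TPM, and its range of 125 to 226 TPM overlapped that of Pcna, the sliding clamp, at 105 ± 21.8 TPM. Pcna, Pold2, Rpa3 and Mcm3 came next in order with means between 97.5 and 105 TPM, and these neighbours did not differ beyond their spread. At the lower end stood Mcm10 at 3.33 ± 3.46 TPM, Orc1 at 3.03 ± 2.46 TPM and Cdk6 at 0.868 ± 1.24 TPM, 3 genes whose ranges overlapped. Cdk4 and Cdk6, which both bind D-type cyclins, thus stood at opposite ends of the order of levels.

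**Figure D1:**
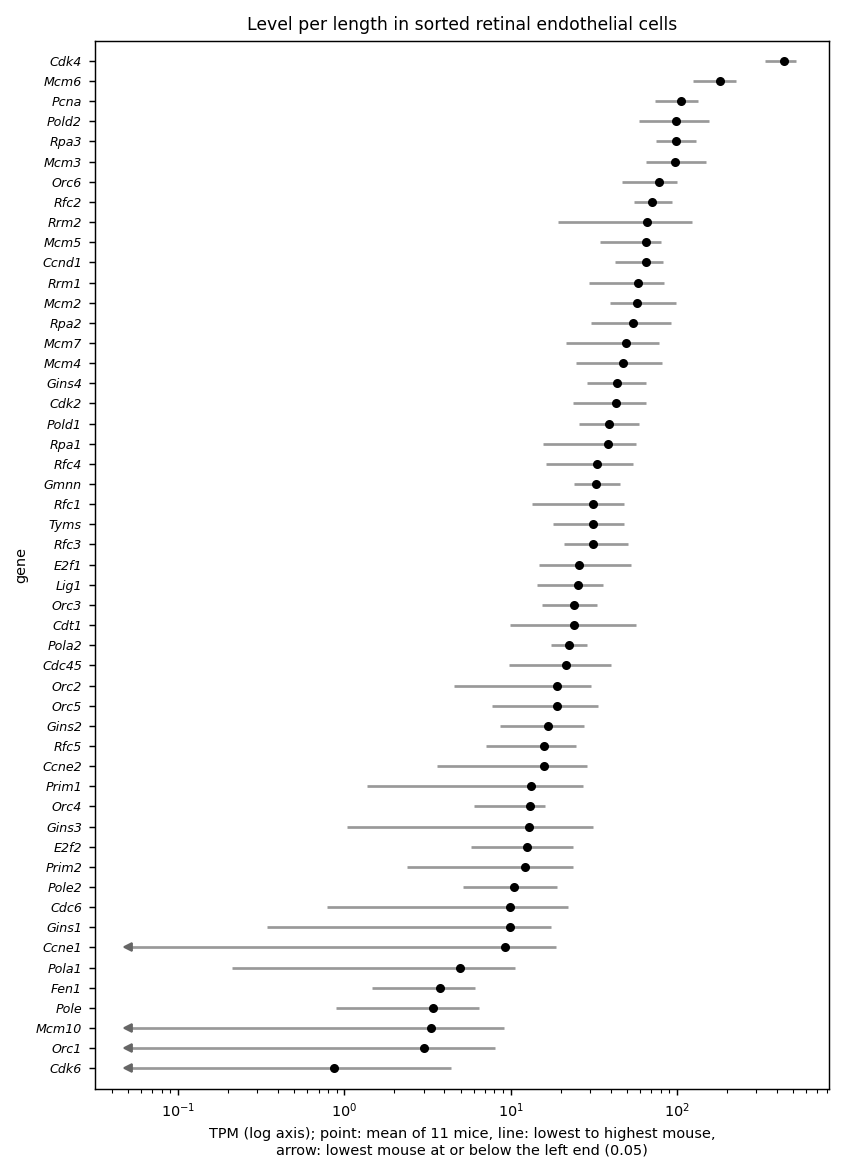
Levels of the 51 genes in TPM on a log axis, ordered by mean, where points are means of 11 mice, lines run from the lowest to the highest mouse, and arrows mark a lowest mouse at or below 0.05 TPM. Cdk4 lies to the right of all others with 340 to 520 TPM, and Cdk6 is the lowest by mean with 0.868 TPM.

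Between mice, low genes scattered more. The residual SD of log2 CPM, after treatment and litter were taken out, had a median of 0.43 over the 51 genes and ranged from 0.14 in Cdk4 to 3.60 in Mcm10. It was 0.31 in the median of the 25 genes with the most reads and 0.64 in that of the other 26. Values of the low genes therefore carry wide errors.

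For OSM against PBS, edgeR's quasi-likelihood model held litter as a second term and was fitted over all 17050 genes, with Benjamini-Hochberg adjustment. None of the 51 genes had an adjusted p under 0.05, and the lowest adjusted p was 0.955. Over all genes tested, 0% passed. At an unadjusted p under 0.05 there were 6 of the 51 genes (11.8%), against 4.96% of all genes tested, while DESeq2, another count test, gave 10 of them and 6.07%. Without the filter on low counts edgeR gave 11 genes, against 5.81%. DESeq2 gave an adjusted p under 0.05 to 0 of the 51 genes and to 0.581% of the 28940 genes with reads. Its default filtering can leave some of these genes without an adjusted p, and they stay in the base of that share. Of the 6 genes, 5 were lower in OSM mice (Gins2, Ccne2, Prim2, Mcm5 and Mcm3) where 2.71% of all genes were, and 1 was higher (Pole) where 2.25% were.

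The fold changes leaned to lower values in OSM mice. The log2 fold change of OSM against PBS was below 0 in 37 of the 51 genes (72.5%), against 51.6% of all genes tested. Its median was -0.23 over the list and -0.01 over all genes, and single genes ranged from -1.76 (Cdk6, SE 1.23) to 0.93 (Pole, SE 0.36). The groups overlapped in every gene. No gene of the list had all OSM mice below all PBS mice, which 0.223% of the tested genes had, nor all above, which 0.188% had. Genes of one list share the same 11 mice and are not independent, so these counts describe the list and carry no test.

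**Figure D2:**
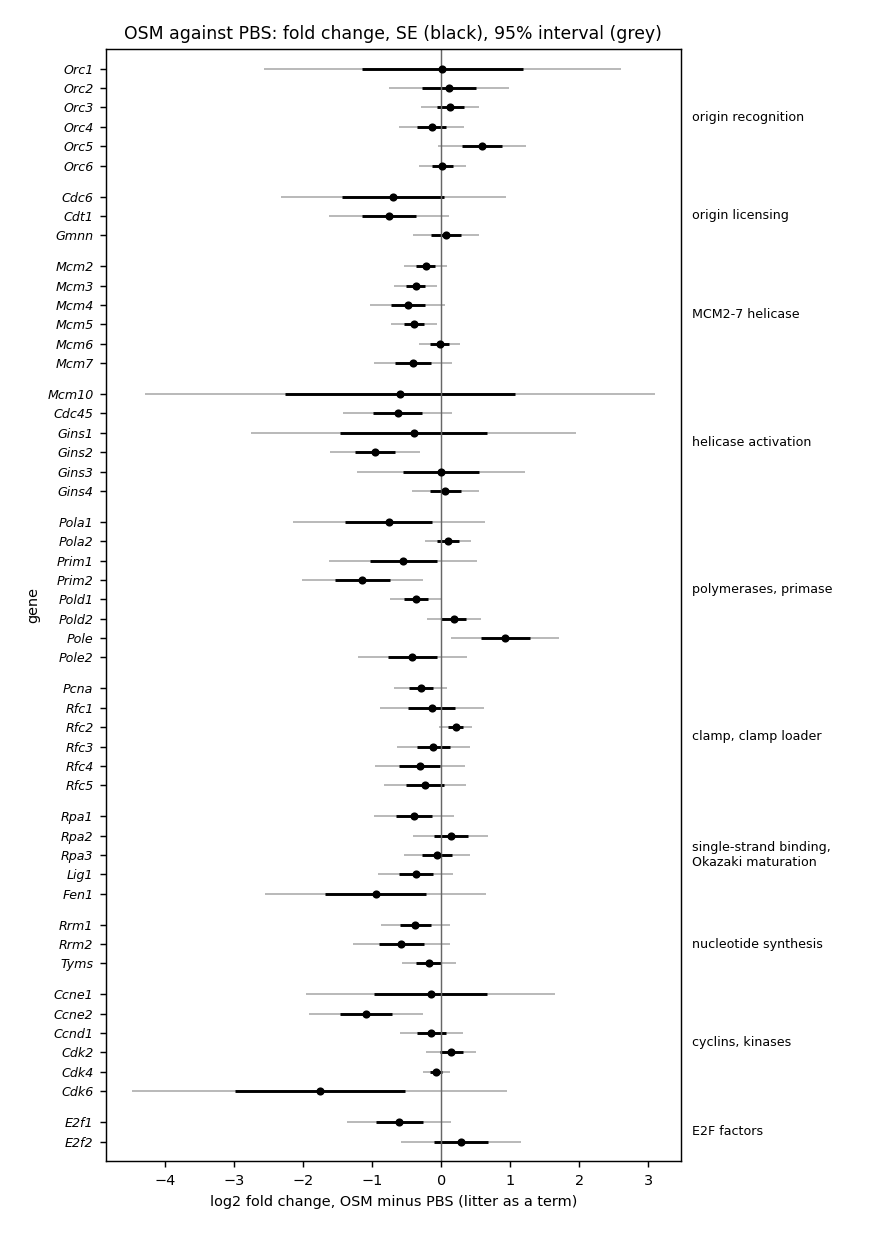
Log2 fold change of OSM against PBS for the 51 genes by role, from edgeR, with SE as black and 95% confidence intervals as grey lines. Points left of 0 are lower in OSM mice (37 of 51), and 6 intervals leave out 0.

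The MCM2-7 helicase, which unwinds DNA ahead of the polymerases was lower in OSM mice for 6 of 6 subunits (median log2 fold change -0.38). Mcm5 (chr8:75836140-75856231 on GRCm39, as are all positions but those of the promoter stretches) measured 51.8, 75.7, 93.3, 118 and 91.4 CPM in OSM mice 1, 2, 5, 6 and 9. The PBS mice had 84.6 CPM at the lowest, 117 in the median and 120 at the highest. The groups overlapped through PBS mouse 4, the lowest of its group, and OSM mouse 6, the highest of its own. On the log2 scale the difference was -0.39 (SE 0.15, unadjusted p = 0.0227 and adjusted p = 0.955, edgeR).

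Mcm3 (chr1:20870791-20890536) measured 89.6, 113, 116, 118 and 148 CPM in OSM mice in the same order, and 114 to 210 CPM with a median of 147 in PBS mice. OSM mice 1 and 2 lay below all PBS mice and the others overlapped with them. The difference was -0.37 (SE 0.14, unadjusted p = 0.0235 and adjusted p = 0.955, edgeR). Mcm4 gave 29.2, 52.9, 51.9, 58.2 and 41.8 CPM after OSM and 44.6, 63.5 and 98.6 CPM as lowest, median and highest after PBS, with a log2 fold change of -0.48 (SE 0.25). Mcm2 gave 83.1, 87.6, 73.5, 88.6 and 115 CPM after OSM and 79.2, 107 and 175 CPM after PBS. PBS mouse 10 was the highest, and the difference was -0.22 (SE 0.14) on the log2 scale. Mcm6 had the highest level of the helicase genes but the smallest difference. Its values were 245, 205, 160, 200 and 290 CPM after OSM and 166, 235 and 264 CPM after PBS, with a log2 fold change of -0.02 (SE 0.14), and without litter 2 the value was 0.11. Mcm7 was at -0.41 (SE 0.25).

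ORC, which marks the origins, had higher values in OSM mice in 5 of its 6 subunits (median log2 fold change 0.07), none at an unadjusted p under 0.05. For Orc1 and Orc6 the sign was not stable, and with limma voom they were at -0.40 and -0.00018. Orc5 measured 36.3, 35.3, 24.8, 40 and 58.7 CPM after OSM and 12.9, 26.8 and 36.7 CPM after PBS. OSM mice 6 and 9 lay above all PBS mice, and the log2 fold change was 0.59 (SE 0.29, unadjusted p = 0.0672). Without OSM mouse 9 it was 0.19. Orc6 measured 25.7, 41.1, 58, 56.7 and 42.8 CPM after OSM against 28.7, 48 and 57.5 CPM after PBS. Its difference of 0.02 (SE 0.15) had an interval of -0.32 to 0.36. Orc1, the subunit that recruits Cdc6, was near its counting limit in several mice, at 3.7, 0.609, 5.4, 0 and 11 CPM after OSM and 0.91, 4.31 and 7.32 CPM after PBS. Its log2 fold change of 0.02 had an SE of 1.17. The other 3 subunits lay between -0.14 (Orc4, SE 0.21) and 0.13 (Orc3, SE 0.19).

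Among the licensing factors, Cdt1, which brings the helicase to origins, measured 14.5, 21.2, 11.5, 7.47 and 8.43 CPM in OSM mice and 14.9, 16.7 and 41.2 CPM in PBS mice. OSM mice other than mouse 2 lay below the lowest PBS mouse, at a log2 fold change of -0.75 (SE 0.40, unadjusted p = 0.0843). Gmnn, the inhibitor of Cdt1, measured 19.4, 19.9, 15.6, 25.3 and 21.7 CPM after OSM against 15.9, 19.3 and 28.2 CPM after PBS. The groups overlapped widely, and the difference of 0.07 had an interval of -0.41 to 0.55. Cdc6, which loads the helicase with ORC, varied most, at 10.9, 3.36, 19.5, 12.6 and 1.02 CPM after OSM and 7.07, 14.4 and 27.3 CPM after PBS. OSM mice 2 and 9 were lowest, and the log2 fold change was -0.69 (SE 0.74). It was -0.023 without OSM mouse 9, -1.18 without OSM mouse 1 and -1.10 without PBS mouse 8.

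Of the genes of helicase activation, 5 of 6 were lower (median log2 fold change -0.50). Gins2 (chr8:121305372-121316043), a GINS subunit, had the lowest p of the 51 genes. It measured 7.81, 9.74, 10, 8.9 and 13.8 CPM after OSM and 10.5, 22.4 and 26.6 CPM after PBS. The groups overlapped only through OSM mouse 9 and PBS mouse 3. In each litter, every OSM mouse lay below every PBS mouse, which held for 1 of the 51 genes and 0.845% of all genes tested. The opposite order held for 0 of the 51 and 0.891% of all. The log2 fold change was -0.96 (SE 0.29, unadjusted p = 0.00777 and adjusted p = 0.955, edgeR). DESeq2's Wald test gave an unadjusted p of 0.000389 and an adjusted p of 0.051, and over the 23 alternatives the adjusted p ranged from 0.051 to 1. Of the exon bases of Gins2, 67.3% are shared with the neighbouring gene Gse1, and such reads are commonly left out when reads are counted per gene.

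The other GINS genes spread widely, with log2 fold changes of -0.40 for Gins1 (SE 1.07), 0.00 for Gins3 (SE 0.55) and 0.06 for Gins4 (SE 0.22). Cdc45, which joins GINS on the helicase, was at -0.63 (SE 0.36). Mcm10, an activator of the loaded helicase, measured 0.0287, 10.1, 0.374, 3.11 and 21.8 CPM after OSM and 0, 5.86 and 19.1 CPM after PBS. Both groups held mice near 0 and mice near 20 CPM, and the log2 fold change of -0.60 had an SE of 1.67.

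Polymerases and primase were mixed, with 5 of 8 genes lower (median log2 fold change -0.39). Prim2 (chr1:33492888-33709466), the large subunit of primase, measured 8.99, 3.3, 17.3, 19.5 and 8.33 CPM after OSM and 13, 19.8 and 35.3 CPM after PBS. OSM mice 1, 2 and 9 were below all PBS mice, and the log2 fold change was -1.14 (SE 0.40, unadjusted p = 0.0154 and adjusted p = 0.955, edgeR). Pole (chr5:110434172-110486287), the catalytic subunit of the leading-strand polymerase, went the other way, at 12, 10.3, 18.3, 13 and 8.84 CPM after OSM and 2.38, 6.35 and 14.3 CPM after PBS. It was higher in OSM mice in all 3 litters, although PBS mouse 8 lay among the OSM mice. The log2 fold change was 0.93 (SE 0.36, unadjusted p = 0.0246 and adjusted p = 0.955, edgeR). Its partner Pole2 was at -0.42 (SE 0.36).

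Pold1, the catalytic subunit of the lagging-strand polymerase, measured 33.3, 41.5, 51.3, 38.1 and 60 CPM after OSM and 49.3, 54.9 and 79.6 CPM after PBS. OSM mice 1, 2 and 6 lay below all PBS mice, and the log2 fold change was -0.36 (SE 0.17). Its accessory subunit Pold2 measured 39, 48.3, 87.9, 80 and 111 CPM after OSM and 44, 61.9 and 91.7 CPM after PBS, which gave 0.18 (SE 0.18) on the log2 scale. Pola1, the catalytic subunit that extends primers, was at -0.76 (SE 0.63), its partner Pola2 at 0.10 (SE 0.15), and Prim1 at -0.55 (SE 0.48).

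Pcna and 4 of the 5 clamp loader genes were lower (median log2 fold change -0.19 over the 6 genes). Pcna measured 49.8, 42.3, 41.5, 69.2 and 52.2 CPM after OSM and 43.5, 63.7 and 75.6 CPM after PBS. OSM mice 2 and 5 lay just below all PBS mice, and the log2 fold change was -0.30 (SE 0.17). Rfc2 was the loader gene that was higher, at 107, 93.6, 117, 153 and 139 CPM after OSM and 83.1, 102 and 126 CPM after PBS. It was higher in OSM mice in all 3 litters, at 0.21 (SE 0.11) on the log2 scale. Rfc1, Rfc3, Rfc4 and Rfc5 lay between -0.31 and -0.11. Of the exon bases, 24.3% of Rfc2 and 20.8% of Pcna are shared with other genes.

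The replication protein A genes, whose products coat single strands, gave log2 fold changes of -0.39 (Rpa1, SE 0.26), 0.14 (Rpa2, SE 0.25) and -0.07 (Rpa3, SE 0.22). Lig1 and Fen1, which join and trim Okazaki fragments, were at -0.37 (SE 0.25) and -0.95 (SE 0.73). Fen1 shares 66.0% of its exon bases with other genes and had only 1.06 to 4.36 CPM.

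All 3 nucleotide synthesis genes were lower (median log2 fold change -0.37), with wide overlap. Rrm2, the S-phase subunit of ribonucleotide reductase, measured 25.6, 14, 42.7, 60.9 and 62.6 CPM after OSM and 36.7, 55.3 and 96.5 CPM after PBS. OSM mice 1 and 2 were lowest, and the log2 fold change was -0.57 (SE 0.32). Tyms, thymidylate synthase, measured 31.8, 28.7, 30.9, 41.2 and 72.1 CPM after OSM and 25.7, 57.3 and 68 CPM after PBS. The lowest was PBS mouse 3 of litter 1 and the highest OSM mouse 9 of litter 3, and the difference was -0.18 (SE 0.18) on the log2 scale. Rrm1, the large subunit of the reductase, was at -0.37 (SE 0.23).

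Of the cyclins and kinases that open S phase, Ccne2 (chr4:11190303-11204947), a cyclin E, had the most separated values. It measured 11.3, 9.07, 4.79, 24.4 and 12.3 CPM after OSM and 18.8, 25.2 and 35.7 CPM after PBS. All OSM mice but mouse 6 lay below the lowest PBS mouse. The log2 fold change was -1.08 (SE 0.37, unadjusted p = 0.0149 and adjusted p = 0.955, edgeR), with similar within-litter differences of -1.08, -1.31 and -1.30. Ccne1, the other cyclin E, measured 4.56, 4.75, 6.8, 15.4 and 4.98 CPM after OSM and 0.0296, 7.61 and 16 CPM after PBS, with a log2 fold change of -0.15 (SE 0.82). Whether Ccne1 and Ccne2 differ in their response was not tested.

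Ccnd1, cyclin D1, measured 44.8, 49.6, 90.3, 54.5 and 92.8 CPM after OSM and 65, 73.6 and 80.8 CPM after PBS. The OSM mice lay on both sides of the narrow PBS range, and the log2 fold change was -0.14 (SE 0.20). Of its exon bases, 48.4% are shared with a neighbouring gene. Cdk4 measured 257, 314, 350, 331 and 397 CPM after OSM and 289, 350 and 407 CPM after PBS. Its log2 fold change of -0.07 had the smallest SE of the list, 0.09, and an interval of -0.26 to 0.12. Cdk6 measured 4.45, 2.2, 0.714, 0.873 and 0 CPM after OSM and 0.296, 1.82 and 13.6 CPM after PBS. PBS mouse 4 alone held the highest value, and the log2 fold change of -1.76 had an SE of 1.23. Cdk2 was at 0.15 (SE 0.16) and higher in OSM mice in all 3 litters.

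E2f1, an activator of replication genes, measured 11.7, 20.5, 12.9, 20.9 and 12.1 CPM after OSM and 12.5, 23.5 and 41.5 CPM after PBS. OSM mice 1 and 9 lay below all PBS mice, and the log2 fold change was -0.61 (SE 0.34). E2f2 was at 0.29 (SE 0.39). Of the genes with the E2F letters in their promoter, 12 of 16 were lower (median log2 fold change -0.37) and of those without, 19 of 25 (median -0.22). Among the 10 genes with no promoter at hand, 6 were lower.

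**Figure D3:**
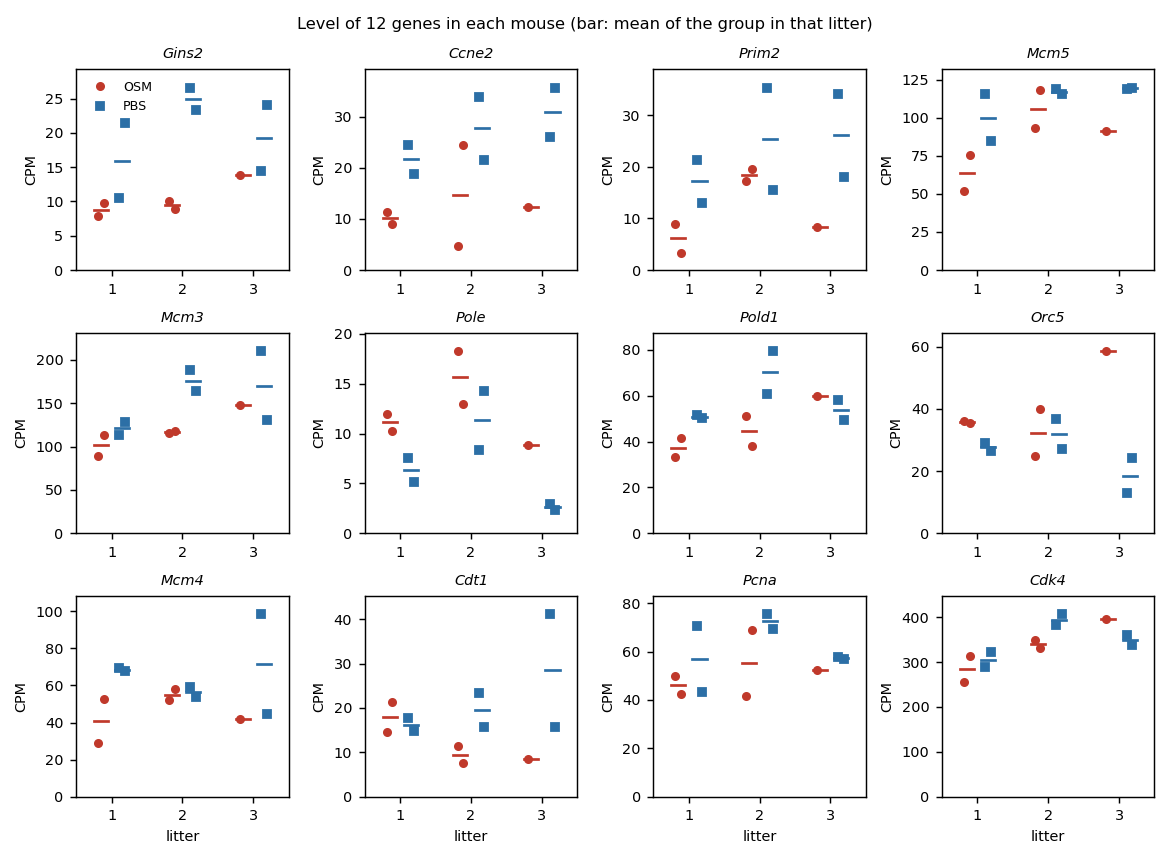
CPM of 12 genes in each mouse by litter, on linear axes from 0, with OSM mice as red circles, PBS mice as blue squares and bars at the mean of the group in that litter. Gins2 has its OSM mice below the PBS mice of the same litter in all 3 litters, and Pole has higher means in OSM mice in all 3 litters.

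Within litters, the OSM mice differed from the PBS mice in mean log2 CPM by a median of -0.18, -0.23 and -0.16 over the 51 genes in litters 1, 2 and 3. Over all genes tested the same medians were 0.01, -0.01 and 0. Lower means in OSM mice were found for 34, 35 and 28 of the 51 genes. In all 3 litters, 16 genes were lower (31.4%, against 11.8% of all genes tested) and 3 were higher (5.88%, against 11.3%). The other 32 went both ways. Litter 3 holds 1 OSM mouse, so its differences rest on that animal.

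Each mouse can be summed over the list. The sums in OSM mice 1 and 2 were 2004 and 2070 CPM, against 2356 and 2357 CPM in PBS mice 3 and 4. In litter 2, OSM mice 5 and 6 had 2298 and 2538 CPM, below 2882 and 2792 CPM in PBS mice 7 and 8. In litter 3, OSM mouse 9 had 2854 CPM, between 2947 and 2708 CPM in PBS mice 10 and 11. By this sum, in which genes with many reads weigh most, the OSM mice of litters 1 and 2 were below their PBS littermates. The OSM mouse of litter 3 was not. The median log2 level of the 51 genes against their mean was 0.19 in OSM mouse 9. It was 0.28 and 0.21 in PBS mice 10 and 11. Over all genes tested, these medians were -0.04, -0.002 and 0.01. By the median of the 51 genes, the OSM mice were below their PBS littermates in litters 1, 2 and 3, unlike by the sum. In litter 3 the median of OSM mouse 9 was close to that of PBS mouse 11. OSM mouse 1 was the lowest of all mice in 16 of the 51 genes, against 17.4% of all genes tested.

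**Figure D4:**
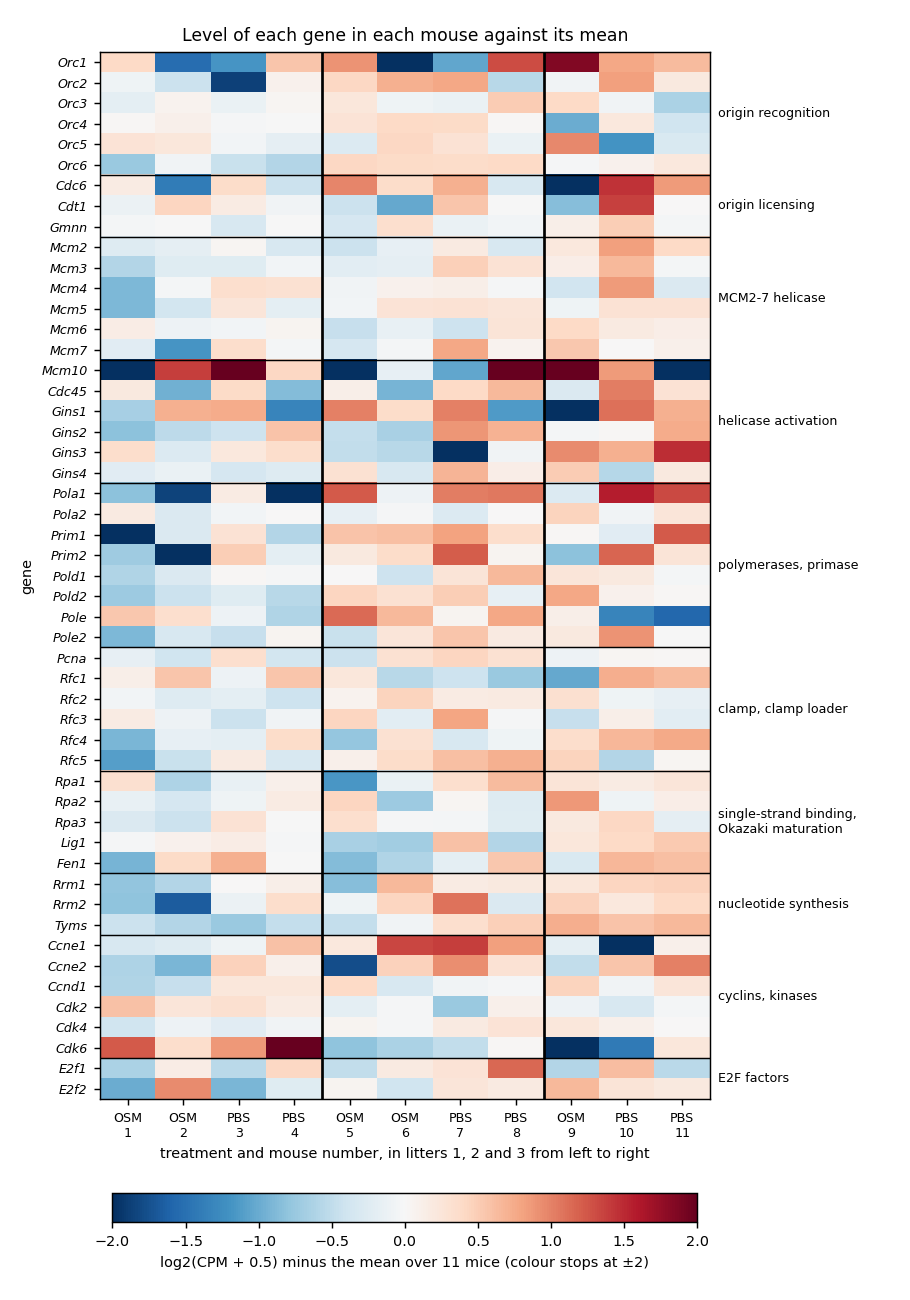
Heatmap of the 51 genes by role in each mouse by litter, coloured by log2(CPM + 0.5) minus the mean of the gene over 11 mice, with the colours ending at 2 above and below. Mice 1 and 2 of litter 1 are lowest in sum with 2004 and 2070 CPM, and PBS mouse 10 of litter 3 is highest with 2947 CPM.

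Between litters, these genes leaned to lower values in litter 1, in counts that describe the list and carry no test. Of the 51, 39 had a higher mean log2 CPM in litter 3 than in litter 1 (76.5%, against 48.7% of all genes tested) and 37 in litter 2 than in litter 1 (72.5%, against 48.9%). The mean was lowest in litter 1 for 29 genes (56.9%, against 33.3%). These means took all mice of a litter together without regard to treatment, and litter 3 held a smaller share of OSM mice. With treatment as a term in edgeR, the median shift against litter 1 was 0.37 in litter 2 and 0.35 in litter 3 on the log2 scale. Over all genes it was 0.00 in each. When edgeR tested litter and kept treatment as a term, 0 of the 51 genes had an adjusted p under 0.05 (0.0176% of all genes did) and 12 had an unadjusted p under 0.05 (23.5%, against 10.3%). DESeq2's likelihood ratio test, without the filter on low counts before the fit, gave an adjusted p under 0.05 to 6 of them. These were Tyms, Orc6, Pole, Mcm2, Pold2 and Rfc2, where 3.41% of the 28940 genes with reads passed. Litter and OIR run are the same units here and cannot be told apart.

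Tyms (chr5:30263198-30278633) had the lowest p for litter. Its means were 29.3, 46.7 and 68 CPM in litters 1, 2 and 3 (unadjusted p = 0.000903 and adjusted p = 0.115, edgeR), and the 4 mice of litter 1 lay between 25.7 and 31.8 CPM. Orc6 had means of 31.8, 57.1 and 46.3 CPM (unadjusted p = 0.00212), Pold2 of 46.6, 79.3 and 82.2 CPM (unadjusted p = 0.00571), and Rfc2 of 95.1, 130 and 114 CPM (unadjusted p = 0.0148), all by edgeR and lowest in litter 1. Mcm2 stood apart in litter 3 instead, with means of 87.9, 88.3 and 140 CPM (unadjusted p = 0.00608, edgeR). Not all genes were lowest in litter 1. Cdk2 was highest there, at 75.5 CPM against 52.5 and 53.5 CPM (unadjusted p = 0.0359, edgeR), as was Cdk6, at 5.90 CPM against 1.07 and 0.757 CPM (unadjusted p = 0.063, edgeR). Pole was lowest in litter 3, with means of 8.75, 13.5 and 4.72 CPM (unadjusted p = 0.0211, edgeR), and Gins3 in litter 2, with means of 8.49, 4.45 and 16.3 CPM (unadjusted p = 0.045, edgeR).

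**Figure D5:**
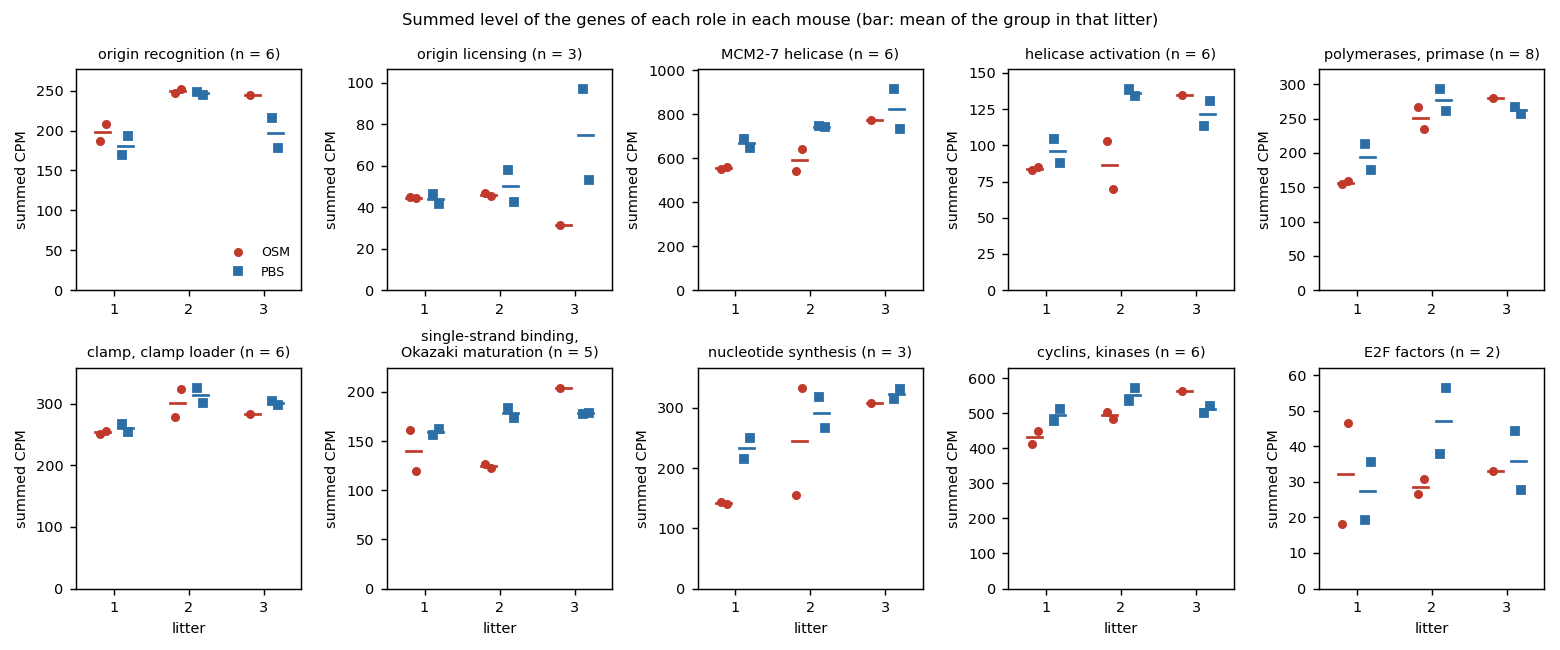
Summed CPM of the genes of each of the 10 roles in each mouse by litter, with OSM mice as red circles, PBS mice as blue squares and bars at the mean of the group in that litter. The MCM2-7 sums are 550 and 560 CPM in the OSM mice of litter 1, against 688 and 647 CPM in its PBS mice, and 773 CPM in the OSM mouse of litter 3, against 912 and 731 CPM.

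Whether the OSM difference depended on litter was tested with interaction terms in edgeR over 19902 genes. None of the 51 genes had an adjusted p under 0.05 (0% of all genes), and the lowest was 0.553. At an unadjusted p under 0.05 there were 4 genes (7.84%, against 5.98%), which were Rfc1, Cdc6, Ccnd1 and Orc5. In 3 of them litter 3 held the largest difference. Cdc6 measured 1.02 CPM in OSM mouse 9 against 27.3 and 17.8 CPM in the PBS mice of that litter, whereas OSM mice 5 and 6 had 19.5 and 12.6 CPM against 16.1 and 7.66 CPM.

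In 4 further lists of genes of the same processes, which hold none of the 51 genes, 0 genes had an adjusted p under 0.05. The counts stand against the 51.6% of all genes that were lower. At an unadjusted p under 0.05, 2.71% of all genes tested were lower and 2.25% higher. Other replication genes were lower for 27 of 37 (median log2 fold change -0.21). At an unadjusted p under 0.05 were Mcm8, a helicase of DNA repair, at -3.12 (SE 1.06) and Wdhd1, which couples helicase and primase, at -1.56 (SE 0.66). Mcm8 measured 0, 3.83, 1.02, 1.12 and 0.679 CPM after OSM and 7.17, 10.4 and 18 CPM after PBS. Its groups did not overlap, which 0.223% of all genes showed in this direction. Nucleotide supply genes were lower for 15 of 19 (median -0.19), and Tk1, thymidine kinase, was at -0.45 (SE 0.20) with an unadjusted p under 0.05.

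G1-S regulators were lower for 19 of 32 (median -0.11). Skp2, which directs the breakdown of the Cdk inhibitor p27, was at -1.23 (SE 0.43), and Mycn, a growth-promoting transcription factor, at 0.53 (SE 0.22), both at an unadjusted p under 0.05. Of the 7 genes of Cdk inhibitors on the list, 3 were higher and 4 lower, none at an unadjusted p under 0.05, and Cdkn1b, which encodes p27, was at 0.47 (SE 0.37) and Cdkn1a at 0.07 (SE 0.10). Rb1, the retinoblastoma gene, was at -0.30 (SE 0.42). Mitotic markers were lower for 21 of 26 (median -0.35). Ube2c, which serves the anaphase-promoting complex, measured 16.8, 19.5, 18.6, 35.5 and 19.9 CPM after OSM and 32.7, 36.6 and 38.6 CPM after PBS, with a fold change on the log2 scale of -0.75 (SE 0.21, unadjusted p = 0.00507 and adjusted p = 0.955, edgeR). Only OSM mouse 6 reached the PBS range. Mki67, which marks cycling cells, measured 15.5, 11.3, 5.06, 11.9 and 3.73 CPM after OSM and 12.2, 18.7 and 31.2 CPM after PBS, which gave -1.06 (SE 0.46) on the log2 scale, and Cdk1 was at -0.24 (SE 0.19).

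Markers of cell types are given beside these values, and their part in the results was not tested. None had an adjusted p under 0.05 (edgeR). At an unadjusted p under 0.05 there were 1 of 10 mural markers, lower, and 5 of 5 erythroid markers, higher. Of all genes tested, 2.71% were lower and 2.25% higher at that p. Endothelial markers were lower for 4 of 10 genes (median log2 fold change 0.02). Mural markers were lower for 10 of 10 (median -0.74, summed to 410 to 831 CPM after OSM and 310 to 1736 CPM after PBS), and rod markers for 3 of 10 (median 0.53, 192 to 5458 and 346 to 1479 CPM). Erythroid markers were higher for 5 of 5 (median 1.12, 358 to 1128 and 117 to 596 CPM). Müller cell and astrocyte markers were lower for 5 of the 6 tested (median -2.02). Their sums were nonetheless alike, at 188 to 405 CPM after OSM (median 280) and 170 to 321 CPM after PBS (median 284). Leukocyte markers were lower for 5 of 5 tested (median -2.05), with sums of at most 17.9 CPM. No list had a marker at 0 in every mouse. Without PBS mouse 3, OSM mouse 5 or OSM mouse 9, the count of lower genes among the 51 was 37, 38 and 38, and the median log2 fold change was -0.19, -0.19 and -0.32.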

How the data were processed

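Retinal endothelial cells of 11 mice were sequenced. The authors primed cDNA on poly(A) from 500 pg of RNA, amplified it by PCR, sequenced single reads without molecular identifiers, mapped them with STAR to GRCm39 and assigned them to genes with featureCounts, and the deposited values are raw counts per gene. The library preparation did not mark strand. Symbols and positions came from GENCODE vM39. The 51 members and the other lists were chosen with earlier results of these data known. Some genes of the other lists are not reported here.

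Counts were tested with edgeR 4.0.16 in R 4.3.3 (TMM, filterByExpr with a minimum count of 10, robust quasi-likelihood fit, litter and treatment as terms, Benjamini-Hochberg over 17050 genes, threshold 0.05). Litters come from the series' design text, and p-values rest on the spread between mice. Interactions used their own filter. Standard errors were derived from the quasi-likelihood F. Within-litter differences used log2 CPM with a prior count of 2, and the heatmap a pseudocount of 0.5. No libraries were copies (lowest chi-square per gene 67.6 over 55 pairs). Methods were tested on simulated data. Values of each OSM mouse and the lowest, median and highest PBS value are given for the 10 genes with the lowest p for treatment, the 5 for litter, the 3 highest and 3 lowest levels, and 10 genes by name. DESeq2 1.42.0 and limma 3.58.1 served as alternatives, which also changed filters, scaling, the litter term and the mice included. Depth was 26697990 to 56033479 reads.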

Additional observations from a re-analysis of the deposited data

Results flagged for a closer look

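In 7 of 102 groups of one gene and one treatment, a single mouse lay far from the others by Dixon's criterion, which chance gives in about 1 in 20 groups. Among PBS mice these were mouse 4, lowest for Mcm5 at 84.6 CPM and highest for Cdk6 at 13.6 CPM, mouse 10, highest for Cdt1 at 41.2 CPM and for Gmnn at 28.2 CPM, and mouse 7, highest for Rfc3 at 43.7 CPM. Among OSM mice they were mouse 9, highest for Tyms at 72.1 CPM, and mouse 6, highest for Ccne1 at 15.4 CPM. The criterion took the mice of a treatment together over litters. The PBS littermates of mouse 9 had 63.9 and 68 CPM for Tyms. Those of mouse 6 had 16 and 10.7 CPM for Ccne1.

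The OSM difference varied between litters at an unadjusted p under 0.05 in 4 genes by edgeR's interaction test, and none passed after adjustment. The unadjusted p was 0.00702 for Rfc1 (adjusted 0.553), with within-litter log2 differences of 0.12, 0.43 and -1.73 in litters 1, 2 and 3. It was 0.0078 for Cdc6 (adjusted 0.568), with -0.64, 0.49 and -4.36, and 0.0305 for Ccnd1 (adjusted 0.775), with -0.76, 0.08 and 0.35. For Orc5 it was 0.0423, with 0.37, -0.01 and 1.73. Litter 3 has 1 OSM mouse.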

How the results depend on the processing

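In 23 alternatives for the comparison of OSM with PBS, none of the 51 genes reached an adjusted p under 0.05, and 35 to 39 were lower in OSM mice when 1 mouse was left out. The number with an unadjusted p under 0.05 was 11 without the filter on low counts, 10 with DESeq2's Wald test and 3 without litter 1, and 5 to 10 when 1 mouse was left out, with 10 without PBS mouse 4. The median log2 fold change was -0.30 without the litter term, -0.32 with limma voom and -0.32 without litter 3, and -0.32 to -0.19 when 1 mouse was left out. The count of genes lower in all 3 litters was 12 to 17 when 1 mouse was left out. Between litters, 3 of the 51 genes were called without the filter, where 2.16% of the 28940 genes with reads were. DESeq2's likelihood ratio test called 6 of them, where 3.41% of all were. It was 0 of them otherwise and 0 when 1 mouse was left out. The cause was not tested. No paired analysis was possible because OSM and PBS mice carry different numbers, so that litter is the only shared unit and stands in the model.

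Of the 27 genes given with values by mouse, 17 kept their direction in all alternatives, although Cdc6 came to -0.023 and Orc5 to 0.19 without OSM mouse 9. Without the litter term Orc6 was at -0.0054, and after thinning to the smallest library Orc1 was at -0.012. With voom Mcm6 was at 0.0083, Orc1 at -0.40 and Orc6 at -0.00018. Without litter 1 Orc6 was at -0.058, Ccne1 at 0.11 and Ccnd1 at 0.22. Without litter 2 Mcm6 was at 0.11, Mcm10 at 0.60, Tyms at 0.10 and Cdk4 at 0.0095, and without litter 3 Orc1 was at -0.44 and Pold2 at -0.0089. When 1 mouse was left out, the range was -0.11 to 0.12 for Mcm6, -1.80 to 0.49 for Mcm10, -0.44 to 0.65 for Orc1, -0.11 to 0.091 for Orc6, -0.050 to 0.15 for Gmnn, -0.0099 to 0.29 for Pold2 and -0.45 to 0.27 for Ccne1. After thinning to the smallest library, Orc1 was the only one of the 27 genes to change sign.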
